A study of Homo sapiens with 16 samples.

Results

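Cytosolic chaperones fold new proteins as they leave the ribosome and refold proteins that stress has damaged. HSP70 proteins bind short unfolded stretches with the help of J-domain partners and of exchange factors that swap their bound nucleotide. HSP90 proteins take over many late-folding clients such as kinases and steroid receptors, and the ring-shaped chaperonin CCT encloses actin and tubulin while they fold. The genes described here are 10 members of this network. They are the HSP90 genes HSP90AA1 and HSP90AB1, the HSP70 gene HSPA8, the HSP70-related exchange factors HSPA4 and HSPH1, the J-domain gene DNAJB1, and the CCT subunit genes TCP1, CCT2, CCT5 and CCT8. They were chosen by name after the listed transcripts had been matched to gene symbols. All 10 were found and passed the filter on low values in both tables of the study, which list 10799 and 8980 transcripts.

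The study profiled 4 human breast cancer lines, grown without any stated stress treatment, by RNA-seq and by ribosome profiling, which sequences the mRNA fragments shielded by ribosomes (ribosome-protected footprints, RPF). MDA-MB-231, called parental here, is classed as triple-negative for the receptors used to type breast tumours and is labelled as poorly metastatic, and MDA-LM2 was derived from it by selection in mice for colonisation of the lung. The remaining pair descends from MDA-MB-231 cells that carry dCas9-KRAB, an inactive Cas9 fused to a repressor domain. Of this pair, sgControl received a control guide and sgHNRNPC a guide that silences HNRNPC, which encodes a nuclear RNA-binding protein. Each line had 2 RPF and 2 RNA libraries, which the study calls biological replicates, and the RNA came from the same lysates as the footprints. A single derivative line stands for the metastatic state and a single guide for the knockdown. Values were normalised counts per transcript, with 1 transcript per gene. Translational efficiency (TE) was taken as RPF over RNA, and the TE difference between lines as the log2 difference in RPF minus that in RNA.

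The RNA values were whole multiples of a library's smallest step, so RNA reads could be counted: 7517953 to 8193031 per library in the table of parental and MDA-LM2 cells, and 5141959 to 6164753 in the table of the knockdown. How many footprint reads lie behind the RPF values is unknown. Vimentin, CD44, AXL, moesin and keratin 18 were chosen as genes present in MDA-MB-231 cells, which does not make each particular to them. They had RNA values at or above the 94.3 percentile of the listed transcripts in every library. Of 6 genes chosen as luminal markers, ESR1, PGR and CDH1 were listed in neither table. The other luminal markers were listed: ERBB2 at the 80.0 to 81.5 percentile of RNA in parental and MDA-LM2 libraries and at the 30.4 to 41.3 percentile in the knockdown table, EPCAM at or below the 19.6 percentile in both tables, and GATA3, in the former table alone, at or below the 2.02 percentile. The targeted gene HNRNPC had RNA values of 2162 and 2146 in sgControl and of 1147 and 1183 in sgHNRNPC, so both knockdown libraries were lower, with a log2 difference of -0.89 ± 0.05 (SE, limma, adjusted p = 5.14e-28).

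The genes were compared per length within each library, with RNA divided by transcript length and RPF by coding length. HSPA8, the constitutive HSP70, had the highest RPF level of the 10 in the parental and MDA-LM2 libraries, at 12.8 to 14.0 times the median gene. In sgControl replicate 1 HSP90AB1, at 9.10 times the median gene, was above HSPA8, at 8.91 times. HSPH1, an HSP70-related exchange factor also known as HSP105, was the lowest of the 10 in RNA and in RPF in all 8 libraries. Even so its RPF level was 1.13 to 1.61 times the median gene. All 10 genes were thus above the median gene in RPF in every library, between the 55.2 and the 99.2 percentile of 4187 genes tested in both tables. The order by mean RPF level in parental cells was HSPA8, HSP90AB1, HSP90AA1, CCT5, CCT2, CCT8, TCP1, DNAJB1, HSPA4 and HSPH1, and it was the same in the other 3 lines. In MDA-LM2 cells, HSP90AB1 overlapped HSP90AA1, and TCP1, DNAJB1 and HSPA4 overlapped in turn. The coding length used for HSP90AA1 was that of its long isoform. Undivided by length, RPF of HSP90AA1 was 1.14 and 1.18 times that of HSP90AB1 in MDA-LM2 libraries. In the other lines it was 0.859 to 1.00 times. HSPA8 and HSP90AB1 overlapped in both lines of the knockdown, as did DNAJB1 and HSPA4 in sgControl.

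**Figure D1:**
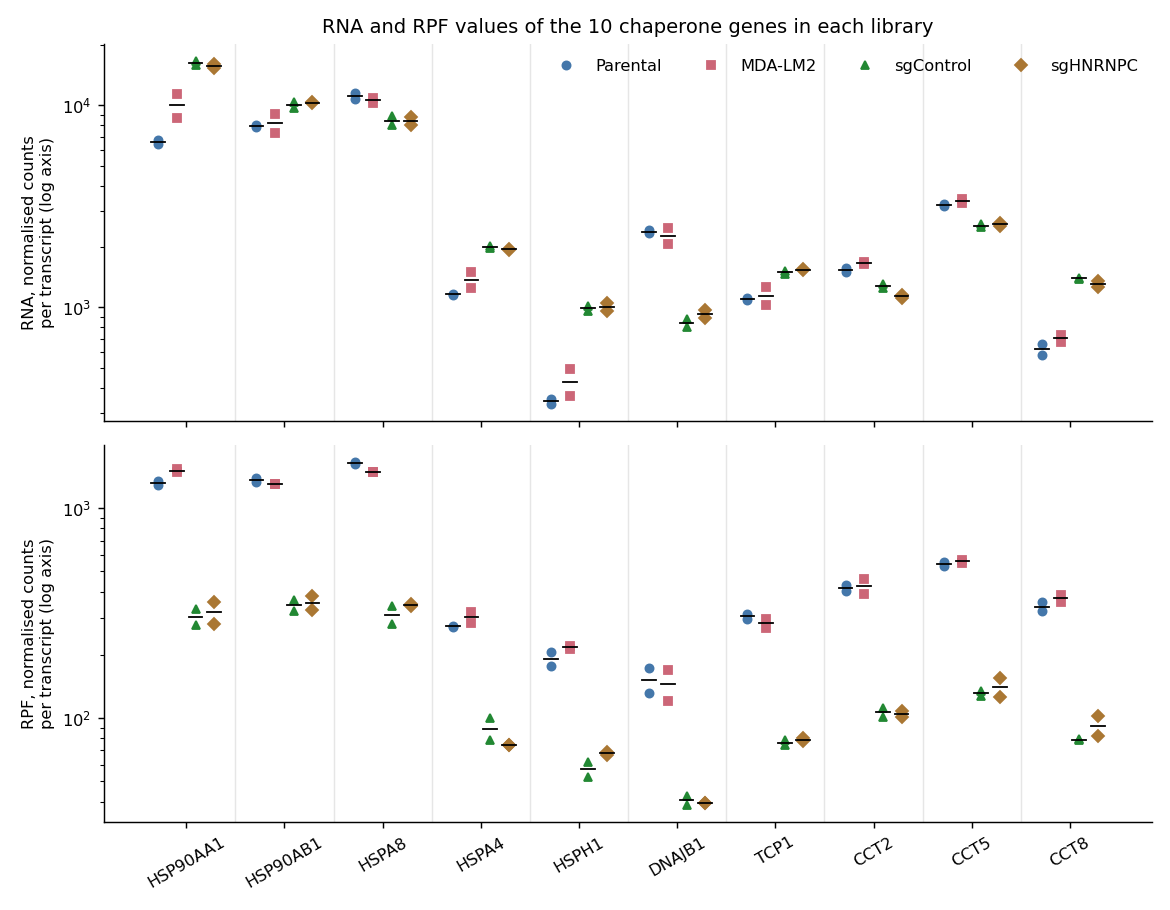
Normalised counts per transcript of the 10 chaperone genes in RNA (top) and RPF (bottom) on log axes, with 1 point per library and a black line at the mean of the 2 replicates. Points of 1 line sit close together, and the tables of parental and MDA-LM2 cells and of the knockdown were normalised separately, so that heights are comparable only within a table. HSP90AA1 RNA is higher in both MDA-LM2 libraries, at 8695 and 11425, than in the parental ones, at 6421 and 6730.

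The first comparison asks what differs in cells that have become highly metastatic. Of the 10 genes only HSP90AA1, the stress-inducible HSP90, passed the test in RNA, where it rose 1.52-fold in MDA-LM2 over parental cells (95% interval 1.17 to 1.96). No member passed in RPF or in TE, although HSP90AA1 did in RPF under some alternatives given with its values. Across all 8393 genes tested, limma called 15.2% in RNA (5.8% higher and 9.44% lower), 12% in RPF (5% higher and 7.03% lower) and 0.0357% in TE, where a call is an adjusted p under 0.05 by the method of Benjamini and Hochberg. The 1 of 10 members called higher in RNA is thus near the background of 5.8%. In bulk libraries, fewer cells of a kind and less RNA per cell cannot be told apart. At an unadjusted p under 0.05, HSP90AA1 was also the 1 member to pass in RPF and the 1 member to pass in TE. At that threshold 2065 of the 8393 genes passed in RPF and 455 in TE, so these counts do not set the members apart.

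HSP90AA1 is listed as a transcript of 12 exons (ENST00000334701, chr14:102081049-102139686, hg38, minus strand) with 854 codons. This is the long isoform, which begins upstream of the start of the common HSP90α mRNA, and reads from either form would count towards it. The RNA values were 6421 and 6730 in parental cells and 8695 and 11425 in MDA-LM2 cells. Both MDA-LM2 values were higher, and they lay farther apart than the parental pair. The difference was 0.60 ± 0.16 (SE) on the log2 scale (adjusted p = 0.0440, limma). With replicate 2 of MDA-LM2 left out it was 0.40, with replicate 1 left out it was 0.80, and the call was lost without parental replicate 1 (adjusted p = 0.350) or parental replicate 2 (adjusted p = 0.233).

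In footprints, HSP90AA1 had values of 1339 and 1283 in parental cells and of 1481 and 1529 in MDA-LM2 cells. The groups again did not overlap, but the gap was smaller than in RNA, at 0.20 ± 0.08 (SE) on the log2 scale (adjusted p = 0.0886, limma). This RPF difference passed with libraries rescaled to equal totals (0.25, adjusted p = 0.0198), with quantile normalisation (0.45, adjusted p = 0.000307) and with robust moderation (0.20, adjusted p = 0.0479). Its TE was 0.209 and 0.191 in parental cells and 0.170 and 0.134 in MDA-LM2 cells. The TE difference was -0.40 ± 0.17 (SE) on the log2 scale and did not pass the test (adjusted p = 0.903, limma). The test of the study, a logistic regression with the kind of read as outcome, gave -0.41 with an adjusted p of 9.90e-20, but it takes each normalised count as an independent read and leaves out the spread between replicates. Over the alternatives by limma, the adjusted p of this TE difference ran from 0.139 to 1.00.

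HSP90AB1, the constitutive HSP90 (chr6:44247087-44253883, plus strand, 724 codons), had RNA values of 7799 and 7988 in parental and of 9074 and 7268 in MDA-LM2 cells. One MDA-LM2 library lay above and the other below the parental pair. The RNA difference was 0.04 ± 0.14 (SE) on the log2 scale, with a 95% interval from 0.814-fold to 1.30-fold. Its RPF values were 1337 and 1386 in parental and 1299 and 1294 in MDA-LM2 cells, so that MDA-LM2 was slightly lower without overlap, at -0.07 ± 0.08 (SE) on the log2 scale (adjusted p = 0.627, limma).

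The HSP90 pair was also set against each other per length within each library. In RNA the ratio of HSP90AA1 to HSP90AB1 was 0.606 and 0.620 in parental cells and 0.705 and 1.16 in MDA-LM2 cells. In RPF the ratio was 0.849 and 0.785 in parental cells and 0.967 and 1.00 in MDA-LM2 cells. The lengths of HSP90AA1 were those of the long isoform, so the height of these ratios depends on that choice. Undivided by length, the RPF ratio was 1.00 and 0.926 in parental cells and 1.14 and 1.18 in MDA-LM2 cells. Both MDA-LM2 libraries were thus higher in each kind, and the 2 RNA libraries of MDA-LM2 differed from each other by more than the lines did in RPF. With 2 libraries against 2, a two-sided exact permutation test of a single ratio can give no p below 0.333, and no test was run.

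**Figure D2:**
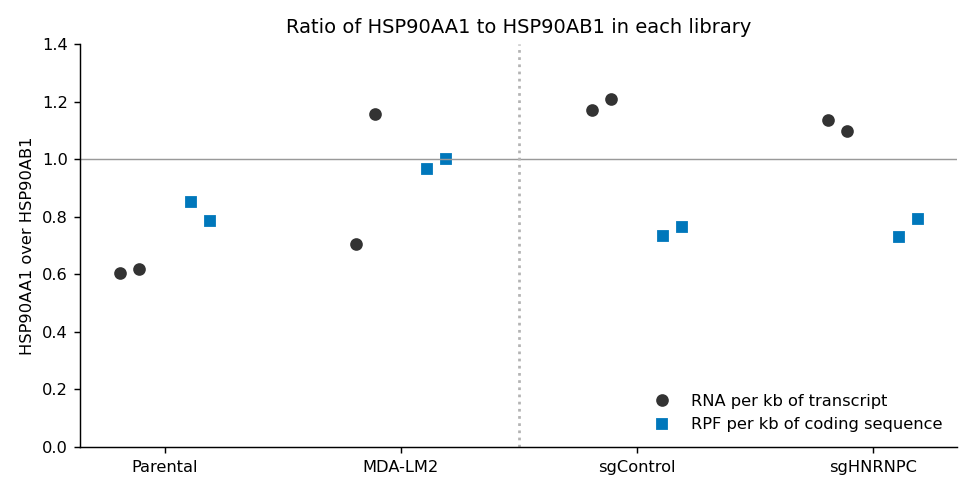
Ratio of HSP90AA1 to HSP90AB1 in each library, for RNA per kb of transcript (circles) and RPF per kb of coding sequence (squares), with a line at a ratio of 1. The dotted line divides the 2 tables. The RNA ratio is below 1 in 3 of the 4 libraries left of the line and above 1 in the 4 knockdown-table libraries. The RPF ratio lies between 0.728 and 1.00 with the coding length of the long HSP90AA1 isoform. Undivided by length, it is 1.14 and 1.18 in MDA-LM2 cells and 0.859 to 1.00 in the other lines.

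HSPA8 (chr11:123057497-123061332, minus strand, 646 codons) had RNA values of 10746 and 11498 in parental and of 10317 and 10858 in MDA-LM2 cells, which overlapped. Its RPF values were 1654 and 1629 in parental and 1492 and 1477 in MDA-LM2 cells. Both MDA-LM2 footprint libraries were lower, with a difference of -0.14 ± 0.08 (SE) on the log2 scale that did not pass the test (adjusted p = 0.232, limma). The interval of the RPF difference ran from 0.814-fold to 1.01-fold, and with quantile normalisation the difference was 0.014.

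The exchange factors were a little higher in MDA-LM2 cells without passing the test. HSPA4 (chr5:133052013-133106449, plus strand, 840 codons) had RNA values of 1170 and 1147 in parental and of 1242 and 1496 in MDA-LM2 cells, and RPF values of 272 and 275 against 284 and 318. Both MDA-LM2 libraries were above both parental ones in each kind, by 0.23 ± 0.13 (SE) in RNA and 0.14 ± 0.11 (SE) in RPF on the log2 scale. HSPH1 (chr13:31136625-31162388, minus strand, 860 codons) had RNA values of 332 and 353 in parental and of 364 and 495 in MDA-LM2 cells. Its RPF values were 177 and 207 against 214 and 221. The lines again did not overlap in either kind, and the differences were 0.31 ± 0.16 (SE) in RNA and 0.18 ± 0.12 (SE) in RPF on the log2 scale, with adjusted p of 0.238 and 0.349 (limma).

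DNAJB1 encodes HSP40, the J-domain partner that hands clients to HSP70, and is heat-inducible. It lies at chr19:14514769-14518397 on the minus strand and has 340 codons. Its RNA values were 2409 and 2338 in parental and 2461 and 2067 in MDA-LM2 cells, and its RPF values were 172 and 131 against 170 and 120. The lines overlapped in both kinds, and the RNA difference of -0.07 ± 0.12 (SE) turned positive on 3 other scalings. DNAJB1 had the lowest TE of the 10 in all 4 libraries of parental and MDA-LM2 cells, per length, at 0.453 to 0.565 times the median gene.

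None of the 4 CCT members passed the test between MDA-LM2 and parental cells. In RNA, the 95% intervals were 0.831-fold to 1.28-fold for TCP1 and 0.910-fold to 1.29-fold for CCT2. They were 0.879-fold to 1.26-fold for CCT5 and 0.932-fold to 1.38-fold for CCT8. TCP1 (chr6:159778498-159789602, minus strand) had RNA values of 1089 and 1116 against 1021 and 1266, which overlapped. CCT2 (chr12:69585459-69601570, plus strand) had RNA values of 1567 and 1496 against 1635 and 1678, with both MDA-LM2 values above. CCT5 (chr5:10250280-10266389, plus strand) had RNA values of 3159 and 3259 against 3300 and 3443, also without overlap. CCT8 (chr21:29056326-29073648, minus strand) had the largest gap of the 4, with RNA values of 584 and 661 against 731 and 677 and RPF values of 322 and 355 against 357 and 385. Its differences were 0.18 ± 0.12 (SE) in RNA and 0.13 ± 0.10 (SE) in RPF on the log2 scale, with adjusted p of 0.341 and 0.441 (limma). In RPF, TCP1, CCT2 and CCT5 overlapped between the lines, with differences of -0.11 ± 0.10, 0.02 ± 0.10 and 0.05 ± 0.09 (SE) on the log2 scale.

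Over the 10 members, the median RNA difference was 0.09 on the log2 scale, with 8 positive and 2 negative, beside a median of -0.02 over all tested genes. The median RPF difference was 0.03, with 6 positive, beside -0.01 over all genes. The median TE difference was -0.10, with 9 negative, beside 0.03 over all genes. Of all 8393 tested genes, 3976 were positive in RNA, 4103 were positive in RPF and 3817 were negative in TE. When libraries were rescaled to equal totals, the median of all genes in RNA went from -0.02 to 0.15, and the RNA differences of HSPA8 and DNAJB1, the 2 negative ones, then became positive.

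**Figure D3:**
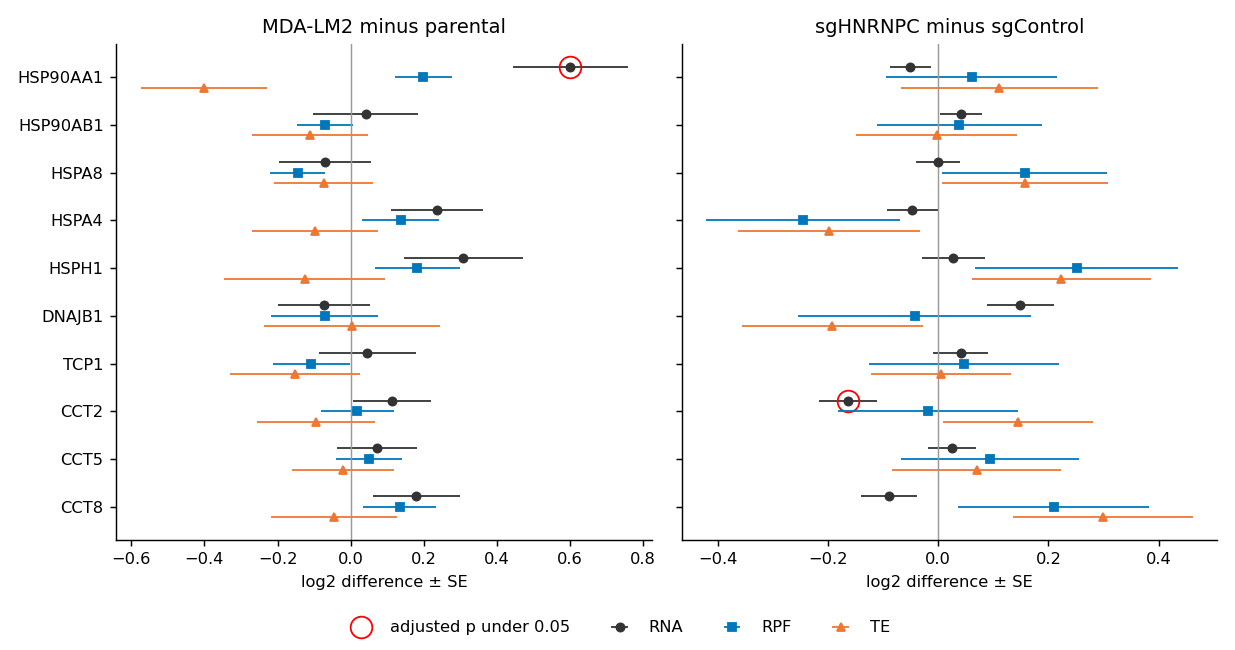
Log2 differences of the 10 chaperone genes in RNA (circles), RPF (squares) and TE (triangles) between MDA-LM2 and parental cells (left) and between sgHNRNPC and sgControl cells (right), with bars of 1 SE from limma over 2 replicates per group. Red rings mark an adjusted p under 0.05, which are HSP90AA1 RNA at 0.60 on the left and CCT2 RNA at -0.16 on the right. The horizontal axes differ between the panels.

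The second comparison asks what the knockdown of HNRNPC changes. Of the 10 members only CCT2, a CCT subunit, passed the test in RNA, where it fell to 0.893 times the control (95% interval 0.830 to 0.960). No member passed in RPF or TE by limma, and none had an unadjusted p under 0.05 there. Of 4283 genes tested, limma called 16% in RNA (4.72% higher and 11.3% lower), 0.0233% in RPF and 0% in TE. The 1 of 10 members called lower in RNA is thus near the background of 11.3%. Of all genes, 329 in RPF and 332 in TE had an unadjusted p under 0.05. Logistic regression of TE called 11 genes, with no member among them.

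CCT2 had RNA values of 1299 and 1246 in sgControl and of 1117 and 1154 in sgHNRNPC. Both knockdown values were lower, with a log2 difference of -0.16 ± 0.05 (SE, limma, adjusted p = 0.0225). The RPF values of CCT2 were 101 and 112 in sgControl and 102 and 108 in sgHNRNPC, so that the footprints overlapped. The RNA call was lost with quantile normalisation (adjusted p = 0.113), after removal of each library's trend with GC content (adjusted p = 0.0627), and without sgControl replicate 1 (adjusted p = 0.187), sgHNRNPC replicate 1 (adjusted p = 0.171) or sgHNRNPC replicate 2 (adjusted p = 0.0573).

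DNAJB1 had RNA values of 803 and 871 in sgControl and of 974 and 883 in sgHNRNPC. Both knockdown values were higher, by 0.15 ± 0.06 (SE) on the log2 scale, just short of the threshold (adjusted p = 0.0809, limma). Its RPF values of 38.5 and 42.5 in sgControl overlapped those of 39.2 and 39.3 in sgHNRNPC. CCT8 had RNA values of 1403 and 1376 in sgControl and of 1358 and 1257 in sgHNRNPC, and RPF values of 79.4 and 78.5 against 82.2 and 101.8. The knockdown was thus lower in RNA and higher in RPF, and the TE difference of 0.30 ± 0.16 (SE) was the highest of the 10 (adjusted p = 0.642, limma).

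The most abundant members hardly differed in RNA between the knockdown and its control. HSP90AA1 had RNA values of 16572 and 15879 against 15994 and 15339, HSP90AB1 of 10410 and 9657 against 10349 and 10284, and HSPA8 of 8018 and 8814 against 8795 and 8029. The groups overlapped for each, and the 95% intervals of the RNA differences ran from 0.917-fold to 1.02-fold for HSP90AA1, from 0.976-fold to 1.08-fold for HSP90AB1 and from 0.946-fold to 1.06-fold for HSPA8. The footprints were less precise. HSP90AA1 had RPF values of 278 and 330 against 279 and 357, HSP90AB1 of 322 and 366 against 325 and 382, and HSPA8 of 281 and 339.8 against 340.3 and 349. For HSP90AA1 this left an RPF interval from 0.837-fold to 1.30-fold.

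The remaining members had RNA differences between -0.05 and 0.04 on the log2 scale. HSPA4 had RNA values of 1978 and 2023 in sgControl against 1950 and 1922 in sgHNRNPC, and RPF values of 78.2 and 99.8 against 74.3 and 74.5. HSPH1 had RNA values of 963 and 1012 against 1056 and 959, and RPF values of 61.8 and 52.6 against 69.2 and 67.0. The 2 exchange factors thus lay on opposite sides in RPF, with differences of -0.24 ± 0.18 and 0.25 ± 0.18 (SE) on the log2 scale that did not pass the test. TCP1 had RNA values of 1513 and 1469 against 1525 and 1543 and overlapping RPF values of 78.7 and 74.0 against 80.2 and 77.5. CCT5 overlapped in both kinds, with RNA values of 2583 and 2493 against 2538 and 2625 and RPF values of 128 and 134 against 126 and 155. The median RNA difference of the 10 was 0.01, with 5 positive and 5 negative, beside -0.04 over all genes, and the median TE difference was 0.09, beside 0.06 over all genes.

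CCT is a double ring in which each ring holds 1 copy of 8 related subunits, so the balance of the 8 mRNAs was described with CCT3, CCT4, CCT6A and CCT7 added to the 4 members. In RPF per coding length, the highest subunit was 1.80 to 2.21 times the lowest in parental and MDA-LM2 libraries and 1.61 to 2.06 times in the knockdown table. TCP1, the CCT1 subunit, was lowest in all 8 libraries, at 0.669 and 0.644 times the mean of the 8 in parental and MDA-LM2 cells and at 0.728 and 0.717 times in sgControl and sgHNRNPC. The RNA levels were far less even in the table of parental and MDA-LM2 cells, where the highest subunit, CCT3, was 4.56 to 5.45 times the lowest, CCT8. In the knockdown table this ratio was 1.49 to 1.74, with CCT6A highest. The listed transcripts of CCT3 and CCT8 have 50.6% and 41.5% GC, and RNA differences between the tables moved with GC content, as described below. The part of base composition in the evenness of the ring was not tested. The coefficient of variation over the 8 subunits was 46.9% to 53.5% in RNA in the former table and 14.4% to 19.2% in the latter, and 16.2% to 24.0% in RPF over both.

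**Figure D4:**
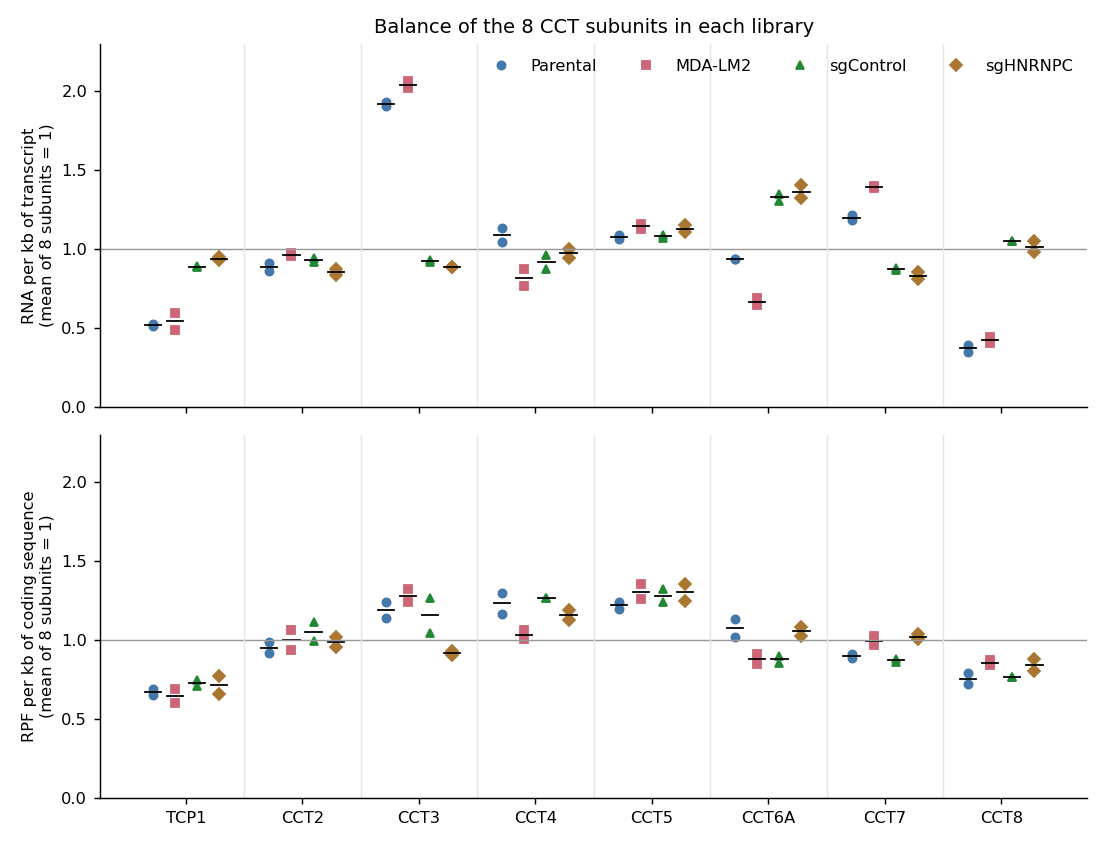
Level of each of the 8 CCT subunits relative to the mean of the 8 in the same library, for RNA per kb of transcript (top) and RPF per kb of coding sequence (bottom), with 1 point per library and a black line at the mean. Mean RNA of CCT3 is 1.92 and 2.04 and that of CCT8 0.372 and 0.424 in parental and MDA-LM2 cells, against 0.925 and 0.888 for CCT3 and 1.05 and 1.02 for CCT8 in sgControl and sgHNRNPC. The mean RPF levels of all subunits and lines lie between 0.644 and 1.31.

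The subunits of the ring were also tested one by one. Between MDA-LM2 and parental cells, CCT6A fell in RNA, from 0.938 to 0.666 times the mean of the ring, by 0.51 ± 0.11 (SE) on the log2 scale over its own values (adjusted p = 0.0228, limma). CCT6A also fell in RPF by 0.34 ± 0.10 (SE), and CCT4 fell in RPF by 0.30 ± 0.09 (SE), with adjusted p of 0.0188 and 0.0290. The RNA difference of CCT4 was larger, at -0.42 ± 0.12 (SE), and just short of the threshold (adjusted p = 0.0529, limma). CCT3 and CCT7 did not pass in either kind, with RNA differences of 0.08 ± 0.11 and 0.21 ± 0.11 (SE). PDCL, PDCL3 and TXNDC9, cofactors of the ring, did not pass in MDA-LM2. In the knockdown, none of the 4 subunits passed, nor did TXNDC9, the 1 cofactor tested there, and the subunits' RNA differences were between -0.11 and 0.05 on the log2 scale. Over all tested genes, limma called 15.2% in RNA and 12% in RPF in MDA-LM2. In the knockdown it called 16% in RNA and only 0.0233% in RPF, which was 1 of 4283 genes. Not passing in RPF there does not set the subunits apart.

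The TE of the members took different orders in the 2 tables. Per length, CCT8 had a TE of 1.99 to 2.29 times the median gene in parental and MDA-LM2 cells and of 0.605 to 0.834 times in the knockdown table. HSPH1 went from 2.20 to 2.99 times the median gene to 0.677 to 0.882 times, and HSP90AA1 from 0.654 to 1.03 times to 0.222 to 0.291 times. DNAJB1 went the other way, from 0.453 to 0.565 times to 0.832 to 1.02 times. In the knockdown table HSP90AA1 had the lowest TE of the 10 in every library, between the 1.82 and 5.16 percentile of the 4187 genes, with HSP90AB1 and HSPA8 next, between 6.81 and 13.8.

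Since parental and sgControl cells are both MDA-MB-231, their levels were set side by side, each relative to the median gene of its own library. The tables were normalised separately and this is a description with no test. The RPF levels of the 10 members in sgControl were 0.704 times (HSPA8) to 1.21 times (HSPA4) those in parental cells. The RNA levels ranged far more widely, from 0.525 times for DNAJB1 to 3.67 times for HSP90AA1 and 4.29 times for HSPH1, with CCT8 at 3.32 times. The TE therefore ranged from 0.246 times for HSP90AA1 to 1.99 times for DNAJB1.

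This spread moved with base composition. Over the 4187 genes, the log2 RNA difference between the tables had a Pearson r of -0.826 with the GC content of the listed transcript, against -0.0807 for RPF and 0.804 for TE. Genes are not independent replicates, and all points share the same libraries, so these are descriptions. HSPH1 (40.7% GC) and CCT8 (41.5% GC) were the members with the lowest GC content and had high RNA in the knockdown table, and DNAJB1 (52.8% GC) had the highest GC content and low RNA there. HSP90AA1 (45.2% GC) and HSPA8 (45.1% GC) had nearly the same GC content, yet their RNA differences between the tables were 1.88 and 0.17 on the log2 scale. The part of base composition in these differences was not tested, and line, table and library preparation cannot be told apart between them. Within a table the relation was weaker, with r of -0.272 for MDA-LM2 minus parental RNA and -0.391 between the 2 MDA-LM2 RNA replicates over 8208 genes, and of -0.0588 for sgHNRNPC minus sgControl RNA over 4190 genes. After the GC trend of each library had been removed, the HSP90AA1 RNA difference between MDA-LM2 and parental cells was 0.57 ± 0.14 (SE) on the log2 scale (adjusted p = 0.0290, limma).

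**Figure D5:**
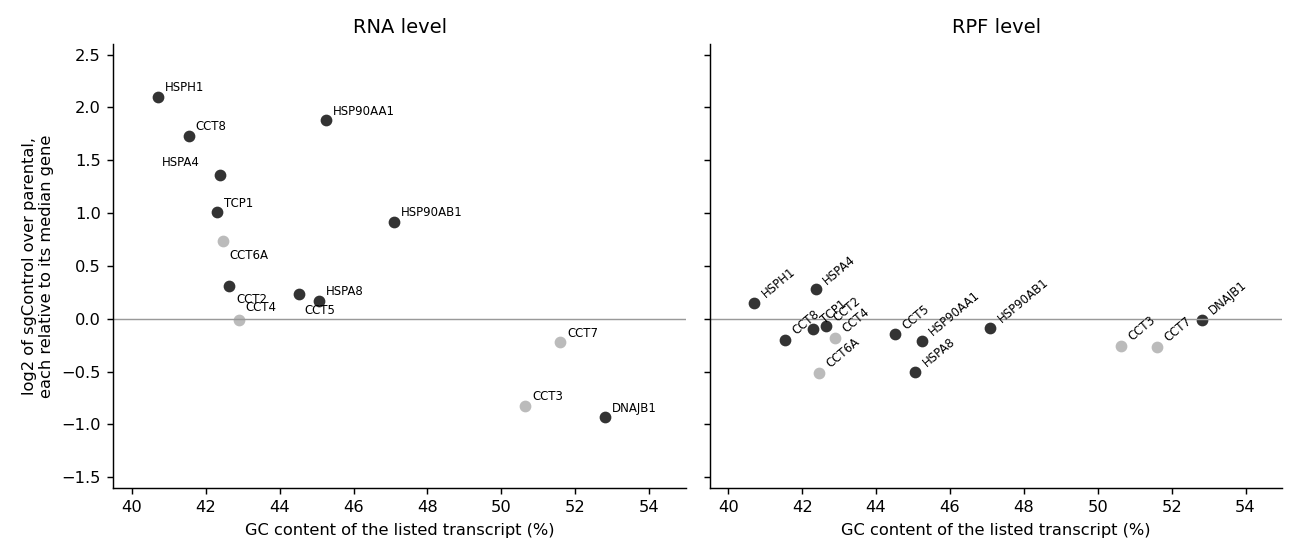
Log2 ratio of the level in sgControl to that in parental cells, each per length and relative to the median gene of its library, against the GC content of the listed transcript, for RNA (left) and RPF (right). Dark points are the 10 members and grey points the other 4 CCT subunits. RNA ratios run from -0.93 for DNAJB1 to 2.10 for HSPH1 and fall with GC content, while RPF ratios of the 14 genes stay between -0.51 and 0.28.

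The stress-inducible chaperone genes are classic targets of heat shock factors, which bind inverted repeats of a short unit, so the members' start sites were searched for them. Sequences from 250 bases before to 50 bases after each start were taken from RefSeq (GRCh38.p14), which gives 16 such windows for the 10 genes, since some genes have several starts. A pair of units was counted as GAANNTTC or TTCNNGAA on either strand, which read the same on both, and 3 units as GAANNTTCNNGAA or TTCNNGAANNTTC, which hold both pairs. Of all 35116 RefSeq windows, 13.5% held a pair and 0.490% held 3 units. Of the members' 16 windows, 7 held a pair (43.8%) and 3 held 3 units (18.8%). The latter belonged to HSP90AA1, HSP90AB1 and HSPA8, of which HSP90AA1 alone passed the test in RNA between MDA-LM2 and parental cells. The 95% intervals there ran from 0.814-fold to 1.30-fold for HSP90AB1 and from 0.777-fold to 1.17-fold for HSPA8. A link between the repeats and the RNA differences was not tested. DNAJB1, TCP1 and CCT2 held pairs only, and HSPA4, HSPH1, CCT5 and CCT8 held none, which says only that these letters are not in these windows.

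The 5 runs of 3 units are shown because the genes that carry them are the 3 most abundant members in RPF. Each is given 5′ to 3′ on the strand of the gene within 30 bases of GRCh38.p14, with the repeat in capitals. The HSP90AA1 run spans bases -88 to -76 from the downstream start and its window is chr14:102087112-102087141 (minus strand), in intron 2 of the listed long transcript. The HSP90AB1 windows are chr6:44247769-44247798 and chr6:44247822-44247851 (plus strand), before a downstream start and in intron 1 of the listed transcript. The HSPA8 windows are chr11:123062346-123062375 and chr11:123062171-123062200 (minus strand), 1014 and 839 bases upstream of the listed transcript, and the runs start at bases -230 and -55 from the RefSeq start.
HSP90AA1: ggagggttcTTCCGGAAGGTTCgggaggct
HSP90AB1, first run: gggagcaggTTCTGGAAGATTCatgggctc
HSP90AB1, second run: ctgagattgTTCTGGAAGCTTCtggattct
HSPA8, first run: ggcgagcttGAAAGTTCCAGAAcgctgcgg
HSPA8, second run: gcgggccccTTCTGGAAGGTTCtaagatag

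The rest of the chaperone network was read from lists of related genes. With so few genes in each list, the calls below describe single genes, and their counts are to be read beside the shares over all genes. These shares were 15.2% in RNA and 12% in RPF in MDA-LM2, and 16% in RNA and 0.0233% in RPF in the knockdown. HSP90 cochaperones, which load clients and pace the HSP90 cycle, were 15 tested genes in MDA-LM2 against parental cells. Of them, UNC45A, a myosin chaperone that works with HSP90, rose in RNA by 0.82 ± 0.11 (SE) and in RPF by 0.94 ± 0.13 (SE) on the log2 scale, with adjusted p of 0.00408 and 3.42e-06 (limma). PPID, a cyclophilin that binds HSP90, rose in RPF by 0.65 ± 0.18 (SE) (adjusted p = 0.0117). No cochaperone was called lower, beside 9.44% of all genes in RNA and 7.03% in RPF. The median RNA difference of the 15 was 0.14, with 9 positive and 6 negative, beside -0.02 over all genes. In RPF the median was -0.02, with 7 positive and 8 negative, beside -0.01 over all genes. In the knockdown, 1 of 13 tested cochaperones passed, no larger a share than the 16% over all genes. This was CHORDC1, whose RNA rose by 0.29 ± 0.08 (SE) (adjusted p = 0.00714).

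Among other J-domain proteins, DNAJB6, which suppresses aggregation of polyglutamine proteins, passed in MDA-LM2, 1 of 9 tested and thus near the background of 15.2% in RNA and 12% in RPF. It fell in RNA by 0.70 ± 0.12 (SE) and in RPF by 0.73 ± 0.11 (SE) on the log2 scale, with adjusted p of 0.00945 and 1.95e-05. None of the 4 tested in the knockdown passed. DNAJA1, the J-domain gene of this list with the most footprints there, had differences of 0.04 ± 0.04 in RNA and 0.44 ± 0.18 (SE) in RPF. None of 9 other HSP70 genes and exchange factors passed in MDA-LM2. HSPA1A and HSPA1B, the stress-inducible HSP70 genes, share 95.8% of the 30-base windows of their coding sequences, so their values are uncertain, and HSPA1B, with the most footprints of the list, had differences of -0.26 ± 0.12 (SE) in RNA and 0.10 ± 0.12 (SE) in RPF. In the knockdown, BAG2, an HSP70 exchange factor, fell in RNA by 0.27 ± 0.08 (SE) (adjusted p = 0.0115), 1 of 7 tested beside 16% of all genes. None of the 10 members shared a 30-base window of coding sequence with another listed transcript.

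Of the genes around CCT, none of the 6 prefoldin subunits, which deliver actin and tubulin to the ring, passed in either comparison. PFDN5, with the most footprints of them, had RNA differences of -0.32 ± 0.12 (SE) in MDA-LM2 and 0.12 ± 0.07 (SE) in the knockdown. Of 9 tubulin genes tested as CCT clients, TUBB6 rose in MDA-LM2 by 1.11 ± 0.13 (SE) in RNA and 1.18 ± 0.12 (SE) in RPF on the log2 scale, with adjusted p of 0.00230 and 3.45e-09. TUBB2A rose in RPF by 0.68 ± 0.16 (SE), and TUBA4A fell by 0.80 ± 0.18 (SE) in RNA and 0.56 ± 0.14 (SE) in RPF. TUBA1A, too, fell in RPF, by 0.28 ± 0.09 (SE). Tubulin genes share long stretches of sequence, so that reads could be split between them. None of the 9 passed in the knockdown, where TUBB, with the most footprints, differed by -0.05 ± 0.04 (SE) in RNA.

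HSPB1, a small heat shock protein that holds unfolded proteins, fell in RPF in MDA-LM2, with a log2 difference of -0.37 ± 0.11 (SE, adjusted p = 0.0186), with an RNA difference of -0.67 ± 0.18 (SE) just short of the threshold (adjusted p = 0.0514). The other 3 genes of its list did not pass, nor did any of the 3 tested in the knockdown, where HSPB1 differed by -0.03 ± 0.06 (SE) in RNA. Of 4 mitochondrial chaperones, none passed in MDA-LM2, where HSPD1, the HSP60 of the matrix, had an RNA difference of 0.10 ± 0.12 (SE). In the knockdown, HSPE1, its partner HSP10, rose in RNA by 0.29 ± 0.08 (SE) and HSPD1 by 0.12 ± 0.05 (SE), with adjusted p of 0.00841 and 0.0442. HSPE1 and HSPD1 lie head to head and share a start region. Neither passed in RPF, where 0.0233% of all genes did, so this does not show that footprints stayed level. The RPF differences of the 4 mitochondrial chaperones ran from -0.21 to 0.66 on the log2 scale in the knockdown.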

How the data were processed

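The authors deposited a signal per transcript, that is, read counts divided by size factors (median of ratios), computed for each table and kind of library on its own. Per the submitters' processing notes the tools were cutadapt 2.3, UMI-tools, Bowtie2 2.3.5 and SAMtools with hg38, and the study aligned reads to a single mRNA for each gene, chosen for its longest coding sequence. Whether the RPF values passed through the study's correction for ribosome stalling is not stated for these files. Every RNA value was a whole multiple of a step of 0.883 to 1.11, within a tolerance of 0.01. Groups came from the sample titles.

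Transcripts were matched to GENCODE version 44, at 97.9% in each table, and lengths, GC content and coordinates came from it. Genes with a mean of at least 10 in RPF and in RNA were tested (8393 and 4283) with R 4.3.3 and limma 3.58.1 on log2 of the value plus 1, with a trend, two-sided, and Benjamini-Hochberg adjustment over all of them. TE was the interaction contrast of line and kind of library. Fold changes are on that log2 scale. Confidence intervals are at 95% and rest on 2 replicates per group. Levels were computed with Python 3.11.15, numpy 2.4.6 and pandas 2.3.3. The tests were checked on simulated data. The labels give no batch.

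The 10 members and the lists of related genes were chosen with earlier results of these data known. The text names all members, CCT3, CCT4, CCT6A and CCT7, and in each list and comparison up to 3 called genes with the largest change or, with no call, the gene with the highest mean RPF. TUBA1A was named outside this rule after its values were seen. ACTB and ACTG1 of the list of CCT clients were not among the listed transcripts matched to gene symbols in either comparison, so they could not be tested. Alternatives were other added values, other filters, quantile normalisation, equal totals, a block for the replicate number, TE within each lysate, robust moderation, logistic regression, leaving out each library and, chosen after seeing the data, removal of each library's GC trend. Changes of single genes under these alternatives were read for the 10 members only. The calls of all other genes, among them CCT4 and CCT6A, were not checked in this way.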

Additional observations from a re-analysis of the deposited data

How the results depend on the processing

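These results rest on 2 replicates per group, the depth of the footprint libraries in reads is unknown, and the spread between the 2 MDA-LM2 RNA libraries is the widest of the RNA groups. The cause of the shifts below was not tested. Of 82 recomputed counts of members called, 69 were the same, and the others are as follows. In MDA-LM2 against parental RNA, the count of 1 became 0 with a minimum mean of 50 (HSP90AA1, adjusted p = 0.0584) and ranged from 0 to 5 as each library was left out. It was 0 without parental replicate 1 or parental replicate 2, 5 without MDA-LM2 replicate 1 (HSP90AA1, HSPA4, HSPH1 and TCP1 higher, DNAJB1 lower) and 2 without MDA-LM2 replicate 2 (HSP90AA1 and HSP90AB1, both higher). In RPF, the count of 0 became 1 with equal totals, quantile normalisation or robust moderation, each time HSP90AA1 higher. In TE, the count of 0 became 1 with logistic regression, HSP90AA1 lower. In the knockdown RNA, the count of 1 ranged from 0 to 2 as each library was left out, with 2 without sgControl replicate 2, where DNAJB1 joined CCT2. It stayed 1 with another gene under quantile normalisation (HSP90AB1 higher, adjusted p = 0.0337) and after removal of the GC trend (DNAJB1 higher, adjusted p = 0.0256). The replicate number as a block gave 2 RPF calls in MDA-LM2, HSP90AA1 (adjusted p = 0.000845) and HSPA8 lower (adjusted p = 0.0179), and changed no other count of members. Replicates of the same number deviated together with r of 0.234 in RNA and 0.0443 in RPF in the MDA-LM2 table and of -0.00377 and 0.0281 in the knockdown table, so that the numbers were not taken to pair the samples. The 2 planned count-model fits of RNA were not run, although RNA reads could be counted from the steps, so the RNA calls have no check by a count model here.

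Of 817 recomputed changes of single members, 734 were the same, 15 passed and 8 no longer passed, and 60, none of them a called change, changed sign. In MDA-LM2 against parental cells, equal totals gave RNA differences of 0.10 for HSPA8 and 0.10 for DNAJB1 and a TE difference of -0.11 for DNAJB1. Quantile normalisation gave 0.24 for HSPA8 and 0.088 for DNAJB1 in RNA, 0.13 for HSP90AB1 and 0.014 for HSPA8 in RPF, and -0.094 for DNAJB1 and 0.026 for CCT8 in TE. Removal of the GC trend gave 0.010 for DNAJB1 and -0.023 for TCP1 in RNA, -0.038 for CCT2 in RPF and -0.043 for DNAJB1 in TE. In the knockdown, equal totals gave a TE difference of -0.0023 for TCP1. Quantile normalisation gave 0.028 for HSPA8 and 0.0050 for HSPA4 in RNA, -0.011 for HSP90AA1, -0.020 for HSP90AB1 and -0.015 for TCP1 in RPF, and -0.011 for HSP90AA1, -0.075 for TCP1 and -0.048 for CCT5 in TE. Removal of the GC trend gave 0.023 for HSPA8 in RNA and -0.032 for TCP1 in TE.

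As each library was left out, the following changes took both signs. In MDA-LM2 against parental cells these were, in RNA, -0.12 to 0.20 for HSP90AB1, -0.20 to 0.052 for DNAJB1 and -0.11 to 0.20 for TCP1, and in RPF -0.32 to 0.18 for DNAJB1 and -0.10 to 0.14 for CCT2. In TE they were -0.17 to 0.18 for DNAJB1, -0.27 to 0.047 for HSP90AB1, -0.20 to 0.0063 for CCT2, -0.16 to 0.066 for CCT8, -0.32 to 0.072 for HSPH1, -0.38 to 0.072 for TCP1 and -0.076 to 0.032 for CCT5. In the knockdown they were, in RNA, -0.042 to 0.10 for HSPH1, -0.013 to 0.10 for HSP90AB1, -0.069 to 0.068 for HSPA8 and -0.0012 to 0.050 for CCT5. In RPF they were -0.12 to 0.24 for HSP90AA1, -0.077 to 0.15 for HSP90AB1, -0.11 to 0.026 for DNAJB1, -0.091 to 0.054 for CCT2 and -0.058 to 0.25 for CCT5. In TE they were -0.10 to 0.32 for HSP90AA1, -0.15 to 0.14 for HSP90AB1, -0.027 to 0.039 for TCP1 and -0.058 to 0.20 for CCT5.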
